A study of Mus musculus with 6 samples.

Results

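Immediate early response genes are transcribed within minutes of a stimulus from factors already present in the cell, without new protein synthesis. The 33 genes described here cover the AP-1 and small Maf subunits, the EGR and KLF zinc finger factors, the NR4A receptors, Myc, the brakes that end the response, the IER and GADD45 proteins, and the effectors Ccn1, Ccn2 and Arc. Membership goes by gene name alone, and all 33 were found among the 18193 genes measured. Where several probe sets name only that gene, the one that was brightest on average over the 6 arrays stands for it.

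Total RNA of E18.5 mouse lungs, close to term, was hybridised to Affymetrix Mouse430_2 arrays. Of the arrays, 3 are labelled GATA6 KO (KO 1, KO 2 and KO 3), for lungs null for the zinc finger factor GATA6, and 3 are labelled wild type (WT 1, WT 2 and WT 3). The labels give neither the strain, nor the driver, cell type or time of the deletion, nor whether each array holds 1 embryo, so the spread between arrays may be partly technical. The study asks which part GATA6 plays in lung development and regeneration. Differences below are KO minus WT on the scale log2(intensity + 16), which understates the change of dim genes.

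Over all probe sets, arrays were comparable in brightness, with median intensities between 20.6 and 24.1. Medians over genes were 7.01, 6.81 and 6.72 log2 in KO 1 to 3 and 6.77, 6.94 and 6.96 in WT 1 to 3. They were thus highest in KO 1, WT 2 and WT 3. Gata6 itself read 11.58, 11.39 and 11.19 log2 in KO 1 to 3 and 11.12, 10.26 and 10.42 log2 in WT 1 to 3, so its probe set read higher, not lower, under the KO label (0.79, SE 0.24, limma adjusted p = 0.964). Where that probe set lies relative to the deleted part is not known here, so it checks neither the deletion nor the labels. Fluidics station 1 handled WT 1 and WT 2, while station 2 handled WT 3 and the 3 KO arrays. Scanning took the WT arrays first and the KO arrays after them, and this order and the labels cannot be told apart. The lung labels fit most defining markers, since Sftpb, Sftpc, Ager and Scgb1a1 were all bright, but Nkx2-1 was dim in both groups. Lymphocyte markers lay near the floor of the arrays for 6 of 6 genes.

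In textbook accounts, growth factors, stretch, shear stress and injury act through ERK, p38 and calcium signalling on the factors SRF, Elk and CREB, which sit on these genes before the signal arrives. SRF binds the CArG box and CREB binds the cAMP response element. The products include transcription factors that start a later wave of genes, and phosphatases and RNA-binding proteins that shut the response down. Many of the transcripts decay quickly, so their level follows the recent past of a cell.

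The genes' promoters are shown because many of the 33 read high and low in the same arrays. Of the 33 genes, 25 had an entry among the RefSeq promoters of build GRCm38.p6, and the 250 bases before the start were searched on both strands. The 6 shown were chosen for their place in the results. Fos and Klf6 read lower in all KO arrays. By their brightest probe sets, KO 1, WT 2 and WT 3 were the highest arrays for Zfp36, Dusp1, Nr4a1 and Ccn1. Each runs 5′ to 3′ towards the gene, and capitals mark matches to the CArG box, to TGACGTCA (the cAMP response element), to its first 5 bases TGACG or their reverse complement CGTCA, to TGANTCA with N restricted to C or G (the AP-1 site), and to TATAAA (the TATA box, on the gene's strand).
Fos: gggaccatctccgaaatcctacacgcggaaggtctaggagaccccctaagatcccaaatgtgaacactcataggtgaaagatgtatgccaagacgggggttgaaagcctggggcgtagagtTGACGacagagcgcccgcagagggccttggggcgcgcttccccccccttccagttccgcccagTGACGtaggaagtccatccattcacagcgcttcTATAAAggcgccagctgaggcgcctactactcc
Klf6: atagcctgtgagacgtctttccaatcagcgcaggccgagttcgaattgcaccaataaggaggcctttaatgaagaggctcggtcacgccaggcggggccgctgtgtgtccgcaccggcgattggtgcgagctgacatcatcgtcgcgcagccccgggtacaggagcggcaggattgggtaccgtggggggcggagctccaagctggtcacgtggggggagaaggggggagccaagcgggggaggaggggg
Zfp36: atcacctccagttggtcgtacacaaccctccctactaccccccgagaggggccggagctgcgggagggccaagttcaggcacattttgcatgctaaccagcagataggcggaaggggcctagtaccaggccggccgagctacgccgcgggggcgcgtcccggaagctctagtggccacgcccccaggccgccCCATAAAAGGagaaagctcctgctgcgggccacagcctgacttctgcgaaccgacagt
Dusp1: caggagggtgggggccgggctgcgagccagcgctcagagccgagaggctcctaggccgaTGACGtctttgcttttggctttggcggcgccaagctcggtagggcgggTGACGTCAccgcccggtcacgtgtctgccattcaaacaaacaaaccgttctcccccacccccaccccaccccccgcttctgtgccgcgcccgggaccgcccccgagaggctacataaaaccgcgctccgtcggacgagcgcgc
Nr4a1: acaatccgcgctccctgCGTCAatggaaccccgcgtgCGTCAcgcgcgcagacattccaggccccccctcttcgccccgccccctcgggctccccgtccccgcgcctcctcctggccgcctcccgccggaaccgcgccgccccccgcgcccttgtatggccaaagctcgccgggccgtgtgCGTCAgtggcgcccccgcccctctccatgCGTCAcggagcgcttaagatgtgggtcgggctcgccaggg
Ccn1: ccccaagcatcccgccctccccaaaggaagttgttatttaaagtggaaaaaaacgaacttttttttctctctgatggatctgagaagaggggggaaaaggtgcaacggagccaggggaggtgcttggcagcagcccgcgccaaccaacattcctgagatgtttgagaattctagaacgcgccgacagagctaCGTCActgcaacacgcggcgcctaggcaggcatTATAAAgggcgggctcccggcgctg

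The Fos stretch is chr12:85473640-85473889 on the plus strand, and its matches to TGACG begin 129 and 66 bases before the start, with TATAAA at 33. The Klf6 stretch (chr13:5861239-5861488, plus strand) holds none of the marked motifs. In the Zfp36 stretch (chr7:28379229-28379478, minus strand) a CArG box begins 58 bases before the start. The Dusp1 stretch (chr17:26508473-26508722, minus strand) holds a whole TGACGTCA at 143 and a further TGACG at 191. The Nr4a1 stretch (chr15:101266596-101266845, plus strand) has 4 matches to CGTCA, at 233, 213, 69 and 40 bases. The Ccn1 stretch (chr3:145649986-145650235, minus strand) has CGTCA at 58 and TATAAA at 25.

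Across the set, TGACG or its reverse complement stood in the stretch of 14 of the 25 genes (56%), against 19.8% of the 27025 genes in the table. The whole TGACGTCA, which also counts under TGACG, stood in Maff, Dusp1 and Btg2 (12%, against 1.77% of genes), and a CArG box in Egr2 and Zfp36 (8%, against 1.62%). TATAAA stood in Fos, Gadd45b, Gadd45g and Ccn1 (16%, against 8.94%). The AP-1 site stood in 0 of the 25, against 5.16% of genes, and AGATAA, the core read by GATA factors, in Jun and Maff (8%, against 11.4%). Egr2 and Maff have several starts in the table, and a match at any of them was counted. These are letter matches in a short window and do not show binding.

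As a set, the 33 genes leaned lower in the KO arrays, but none passed the test. In limma, 0 of 33 passed an adjusted p of 0.05 in either direction (lowest adjusted p = 0.964), where 0.0055% of all 18193 genes passed as lower and 0% as higher. Of the 33, 24 read lower and 9 higher, with a median log2 difference of -0.12, against a median of 0.003 over all genes, of which 41.6% read lower. All genes include many near the floor, and the median over bright genes alone was -0.03. All 3 KO arrays lay below all 3 WT arrays for 3 genes, Fos, Klf6 and Egr2 (9.09%, against 3.81% of all genes). Among bright genes this held for 2 of 22 members (9.09%), against 6.19% of all bright genes, and Egr2 lay near the floor. All 3 lay above for 0 genes, against 5.89% of all genes. The same 3 genes had an unadjusted p under 0.05 (9.09%), against 2.59% of all genes as lower and 4.58% in either direction. With 3 arrays a group, the test recovered 40 of 100 simulated bright genes changed by 1 log2 and 91 of 100 changed by 2. Both sets of 100 were changed in the same simulated data. With only 1 of all genes passing in the real data, the cut-off after adjustment was stricter there. Recovery would thus be lower, and differences of these sizes or smaller could be missed. The simulated rates come from a single draw and vary by several genes between draws. They are for all bright genes, whose median residual SD was 0.24 log2. For the bright members it was 0.42, so fewer of them would be recovered.

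**Figure D1:**
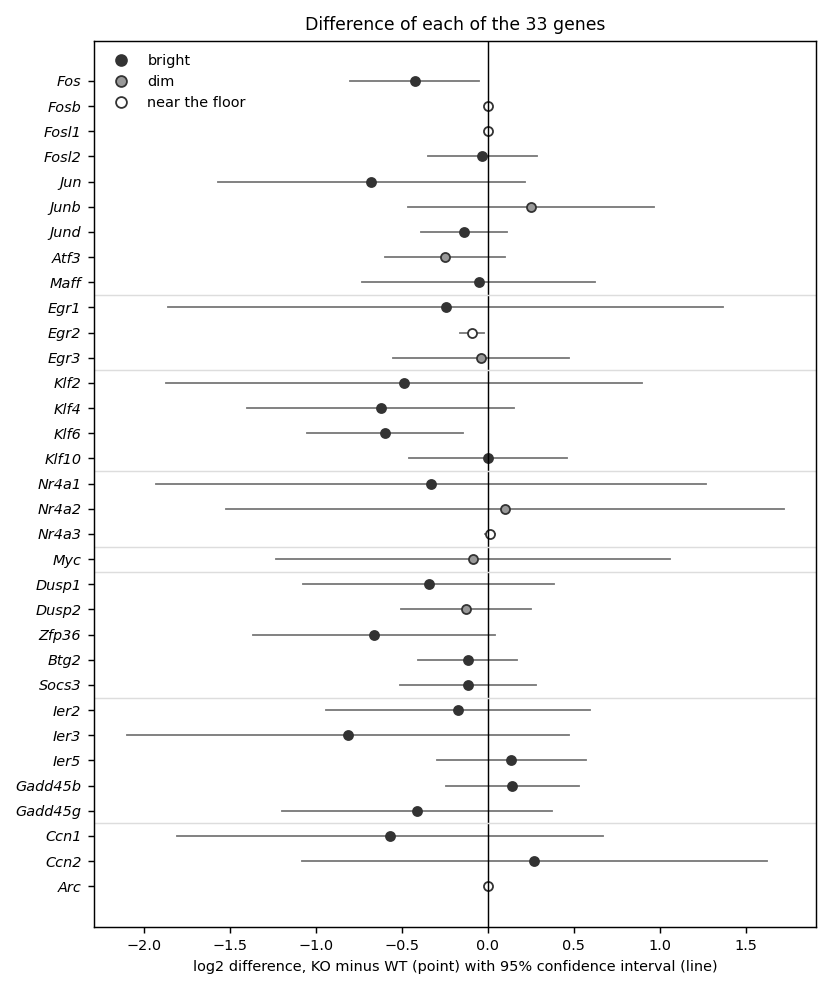
Log2 difference KO minus WT of each of the 33 genes (points) with its 95% confidence interval (lines), in order of role with thin lines between roles; filled points are bright genes, grey points dim genes and open points genes near the floor. Most points lie left of 0, and the intervals of Fos, Klf6 and Egr2 leave out 0 before adjustment over all genes.

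Not all of the genes could be read well. Of the 33, 22 were bright, meaning a mean above the median of all genes (6.88 log2). Another 6 were dim, with readings from 4.50 to 7.71: Junb, Atf3, Egr3, Nr4a2, Myc and Dusp2. The last 5, Fosb, Fosl1, Egr2, Nr4a3 and Arc, lay near the floor, between 4.32 and 4.73 in all 6 arrays, where a change would hardly register. Arc, known as a synaptic gene of neurons, and Fosl1, a Fos relative that many stimulated cells induce, are among these.

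Fos, the founding AP-1 subunit, read 8.94, 8.75 and 8.57 log2 in KO 1 to 3 and 9.33, 9.23 and 8.98 in WT 1 to 3. The groups did not overlap, but KO 1 and WT 3 were 0.04 log2 apart. The means were 8.76 ± 0.18 in KO and 9.18 ± 0.18 in WT (SD, n = 3 each), a difference of -0.43 (SE 0.15, 95% interval -0.80 to -0.05, limma adjusted p = 0.964), or 1.34-fold lower in KO. With fluidics station as a block the difference was -0.23 (SE 0.20). Station 1 holds only WT arrays, so this value compares WT 3 alone with the KO arrays. A fit within station 2 gives the same difference by construction. Fos was read by a single probe set.

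Jun, the partner of Fos in AP-1, read 11.10, 10.16 and 9.87 log2 in KO 1 to 3 and 10.61, 11.35 and 11.21 in WT 1 to 3. KO 1 lay among the WT arrays, and WT 1 lay below KO 1. The difference of -0.68 (SE 0.36, limma adjusted p = 0.964) depended on single arrays, and it was -1.04 without KO 1 and -0.43 without KO 3. The second probe set of Jun, also bright, had the same order of KO arrays and read lower by 0.45.

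The other AP-1 and small Maf members showed smaller differences. Jund, which is present in resting cells too, read 10.81, 10.83 and 10.79 in KO 1 to 3 and 10.93, 11.12 and 10.80 in WT 1 to 3, a difference of -0.14 (SE 0.10). Fosl2, a Fos relative that holds on longer after a stimulus, read 10.14, 10.22 and 10.24 in KO 1 to 3 and 10.45, 10.24 and 10.01 in WT 1 to 3 (-0.03, SE 0.13). The groups overlapped for both genes. Maff, a small Maf protein without an activation domain, read 8.03, 8.73 and 8.71 in KO 1 to 3 and 8.95, 8.43 and 8.25 in WT 1 to 3 (-0.05, SE 0.27). Its lowest array was KO 1, where Jun was high. The dim Junb and Atf3, a stress-induced bZIP factor, differed by 0.25 (SE 0.29) and -0.25 (SE 0.14). None of the 9 AP-1 and small Maf genes passed the test, and 6 of the 9 read lower.

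The 4 KLF zinc finger genes had the lowest median of any role, at -0.54 log2, and 0 of 4 passed the test. Klf6, a widely induced KLF factor, read 9.88, 10.14 and 9.65 log2 in KO 1 to 3 and 10.67, 10.60 and 10.19 in WT 1 to 3. All KO values lay below all WT values, with 0.05 log2 between KO 2 and WT 3. The means were 9.89 ± 0.25 in KO and 10.49 ± 0.26 in WT (SD, n = 3 each), a difference of -0.60 (SE 0.18, 95% interval -1.05 to -0.14, limma adjusted p = 0.964), or 1.51-fold lower in KO. All 5 probe sets of Klf6 read lower in KO, by 0.60, 0.39, 0.31, 1.21 and 0.02 log2 from the brightest to the dimmest. With station as a block, which again sets WT 3 alone against the KO arrays, the difference was -0.30 (SE 0.22).

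Klf2 and Klf4, which endothelium under flow is known to express, varied more between arrays of the same label than Klf6. Klf4 read 11.25, 10.57 and 10.35 log2 in KO 1 to 3 and 10.87, 11.77 and 11.40 in WT 1 to 3. WT 1 lay below KO 1, so the groups overlapped, and the difference was -0.62 (SE 0.32, limma adjusted p = 0.964). Both probe sets of Klf4 read lower in KO, the second by 0.61. Klf2 read 9.86, 8.51 and 8.04 in KO 1 to 3 and 8.51, 9.85 and 9.51 in WT 1 to 3. KO 1 and WT 2 were its highest arrays, and the difference was -0.49 (SE 0.56), which became -1.02 without KO 1 and -0.10 without KO 3. Klf10, induced by TGF-beta, did not lean either way, at 10.28, 10.02 and 9.68 in KO 1 to 3 and 9.78, 10.01 and 10.19 in WT 1 to 3 (95% interval of the difference -0.46 to 0.46).

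Endothelial markers moved with Klf2 and Klf4 across the arrays, as did several other lists. Of 7 markers measured, 7 read lower in KO (median -0.68) and 0 passed the test or lay near the floor. Flt1, Kdr and Tie1, which encode receptors of endothelium, differed by -0.73 (SE 0.26), -0.68 (SE 0.25) and -0.66 (SE 0.27), each with a limma adjusted p of 0.964. The summed intensity of the markers ran from 4683 to 6399 in KO arrays and from 5169 to 9001 in WT arrays. Their median deviation from each gene's mean of 6 arrays was 0.15, -0.54 and -0.56 log2 in KO 1 to 3 and -0.23, 0.67 and 0.38 in WT 1 to 3. For the 4 KLF genes it was 0.25, -0.26 and -0.61 in KO 1 to 3 and -0.19, 0.57 and 0.28 in WT 1 to 3. Both were positive in KO 1, WT 2 and WT 3 and negative in the other arrays. These signs were not particular to endothelium. Epithelial markers had them too. Their medians were 0.18, -0.07 and -0.26 in KO 1 to 3 and -0.31, 0.27 and 0.25 in WT 1 to 3. So did the upstream regulators, other primary response genes, delayed ERK feedback genes and heat shock chaperones described below. Mesenchymal, smooth muscle, macrophage, heart muscle and mesothelial markers did not. The part of the endothelium in the KLF values was not tested, and in whole lung RNA fewer cells of a type and less RNA per cell cannot be told apart.

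**Figure D2:**
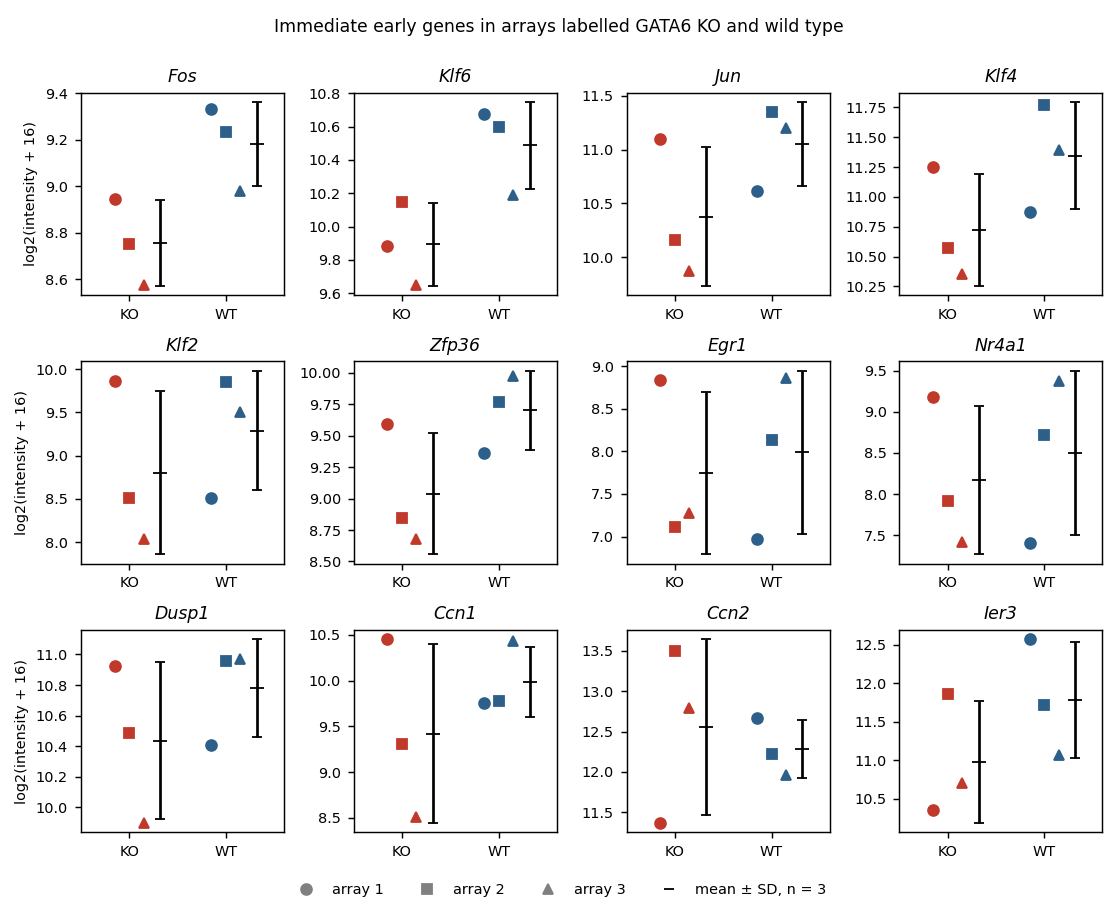
Value of 12 of the genes in each array on the scale log2(intensity + 16), KO in red on the left and WT in blue on the right, with circles, squares and triangles for arrays 1, 2 and 3 and bars for the mean ± SD (n = 3). Fos and Klf6 separate by label, while for Egr1, Nr4a1, Klf2 and Dusp1 KO 1 lies with WT 2 and WT 3, and for Ccn2 KO 1 is the lowest array.

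Egr1, the zinc finger factor of early growth response, had no clear difference between the labels but a wide spread within each. It read 8.84, 7.12 and 7.27 log2 in KO 1 to 3 and 6.97, 8.14 and 8.87 in WT 1 to 3. The highest KO array and the highest WT array were 0.02 log2 apart, and the 6 arrays spanned 3.73-fold. The means were 7.74 ± 0.96 in KO and 7.99 ± 0.96 in WT (SD, n = 3 each), and the difference was -0.25 (SE 0.66, 95% interval -1.86 to 1.36). The dim Egr3 differed by -0.04 (SE 0.21). With station as a block, where WT 3 alone stands against the KO arrays, Egr3 differed by -0.52 (SE 0.11, limma adjusted p = 0.576) and Egr1 by -1.12 (SE 0.85). Egr2, which lay near the floor, read 4.58, 4.64 and 4.57 in KO 1 to 3 and 4.66, 4.73 and 4.67 in WT 1 to 3. Those groups did not overlap, but the difference was only -0.09 (SE 0.03, limma adjusted p = 0.964), and the second probe set of Egr2 read 0.03 higher in KO.

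Nr4a1 and Nr4a2 are nuclear receptors that act without a known natural hormone. Nr4a1 repeated the array pattern of Egr1, Nr4a2 did so only in part, and their relative Nr4a3 lay near the floor. Nr4a1 read 9.17, 7.91 and 7.42 log2 in KO 1 to 3 and 7.41, 8.72 and 9.37 in WT 1 to 3, a 3.91-fold span. Its difference of -0.33 (SE 0.65) was 0.04 without KO 3 and -0.88 without WT 1. The dim Nr4a2 spanned 3.88-fold, and its 2 highest arrays were KO 1 (7.71) and WT 3 (7.21), with the other 4 between 5.75 and 5.99. Its difference was 0.10 (SE 0.66). With station as a block the differences were -1.20 (SE 0.84) for Nr4a1 and -0.78 (SE 0.85) for Nr4a2, whose sign turned. Nr4a3 spanned only 0.04 log2 over the 6 arrays, and KO 1, KO 2 and WT 3 were its highest. Myc, a growth regulator and dim here, was likewise highest in KO 1 (6.57) and WT 3 (6.46), with the other arrays from 5.14 to 5.61 and a difference of -0.09 (SE 0.47).

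Of the 5 genes that end the response 0 passed the test. By the brightest probe set of each they read lower in KO on average, but the second probe set of Btg2 went the other way. Zfp36, which encodes an RNA-binding protein that speeds the decay of AU-rich transcripts, read 9.59, 8.85 and 8.68 log2 in KO 1 to 3 and 9.36, 9.77 and 9.98 in WT 1 to 3. Only KO 1 and WT 1 crossed, and the difference was -0.66 (SE 0.29, 95% interval -1.37 to 0.04, limma adjusted p = 0.964), or 1.58-fold lower in KO. With station as a block, where WT 3 alone stands against the KO arrays, it was -0.94 (SE 0.41). Dusp1, the phosphatase that switches off p38 and JNK, read 10.92, 10.49 and 9.90 in KO 1 to 3 and 10.41, 10.96 and 10.97 in WT 1 to 3. KO 1 stood level with WT 2 and WT 3, and the difference was -0.34 (SE 0.30), with -0.07 without KO 3.

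By their brightest probe sets, Btg2 and Socs3 were steadier. Btg2, which restrains proliferation, read 10.37, 10.18 and 10.10 in KO 1 to 3 and 10.38, 10.45 and 10.18 in WT 1 to 3 (-0.12, SE 0.12). Its second probe set, also bright, went the other way, with 10.47, 10.60 and 10.40 in KO 1 to 3 and 8.77, 10.26 and 9.84 in WT 1 to 3. No direction can therefore be given for Btg2. Socs3, the feedback inhibitor of cytokine receptors, read 9.56, 9.56 and 9.62 in KO 1 to 3 and 10.02, 9.45 and 9.62 in WT 1 to 3 (-0.12, SE 0.16). All 3 KO values of Socs3 lay inside the WT range, and the dim Dusp2 differed by -0.13 (SE 0.15).

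Among the IER and GADD45 genes the order of arrays split. Ier3, which encodes a stress protein that modulates ERK and NF-kappaB signalling, had the largest difference of the 33 at -0.81 (SE 0.52, limma adjusted p = 0.964). It read 10.35, 11.86 and 10.70 log2 in KO 1 to 3 and 12.57, 11.72 and 11.07 in WT 1 to 3. WT 1, low for Egr1 and Nr4a1, was its highest array, and within station 2 the difference was -0.10. Ier2 followed Egr1 instead, at 10.35, 9.86 and 9.29 in KO 1 to 3 and 9.60, 10.13 and 10.28 in WT 1 to 3 (-0.17, SE 0.31).

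Ier5, whose product regulates the heat shock response, read 9.97, 9.61 and 9.47 in KO 1 to 3 and 9.44, 9.40 and 9.79 in WT 1 to 3 (0.14, SE 0.18). Gadd45g, a stress sensor that activates p38 and JNK, read 10.65, 9.87 and 10.06 in KO 1 to 3 and 10.81, 10.02 and 11.00 in WT 1 to 3 (-0.41, SE 0.32). The groups overlapped for both genes. Gadd45b, its relative, read 10.09, 10.54 and 10.48 in KO 1 to 3 and 10.40, 10.07 and 10.20 in WT 1 to 3 (0.14, SE 0.16).

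The matricellular proteins CCN1 and CCN2, both secreted and both known as targets of YAP and SRF, were read in opposite orders. Ccn1 read 10.45, 9.30 and 8.51 log2 in KO 1 to 3 and 9.75, 9.78 and 10.43 in WT 1 to 3. Ccn2 read 11.36, 13.50 and 12.79 in KO 1 to 3 and 12.67, 12.22 and 11.96 in WT 1 to 3. KO 1 was thus the highest array for Ccn1 and the lowest for Ccn2. The differences were -0.57 (SE 0.50) for Ccn1 and 0.27 (SE 0.55) for Ccn2. Over the 6 arrays Ccn2 spanned 4.41-fold and Ccn1 3.85-fold. Ccn1 had 4 probe sets, of which the 2 dimmer ones read 0.16 and 0.13 higher in KO, so its direction depends on the probe set. So does its order of arrays, since WT 2 was the lowest array in those 2 (6.03 and 5.81).

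Many of these genes shared an order of arrays that the labels do not give. For 12 of the 33 genes (36.4%) the 3 highest arrays were KO 1, WT 2 and WT 3, which held for 17.5% of all genes. Those 12 were Jun, Egr1, Klf2, Klf4, Nr4a1, Nr4a2, Myc, Dusp1, Dusp2, Zfp36, Ier2 and Ccn1. For Dusp2 and Ccn1, WT 2 stood barely above WT 1. For Dusp2, Myc and Nr4a2 it lay below the gene's own mean, with deviations of -0.08, -0.13 and -0.38 log2. Among bright genes this order held for 9 of 22 members (40.9%), against 26.6% of all bright genes, so the order is common on these arrays. The opposite order, with KO 2, KO 3 and WT 1 highest, held for Maff, Gadd45b and Ccn2 (9.09%, against 7.54% of all genes).

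**Figure D3:**
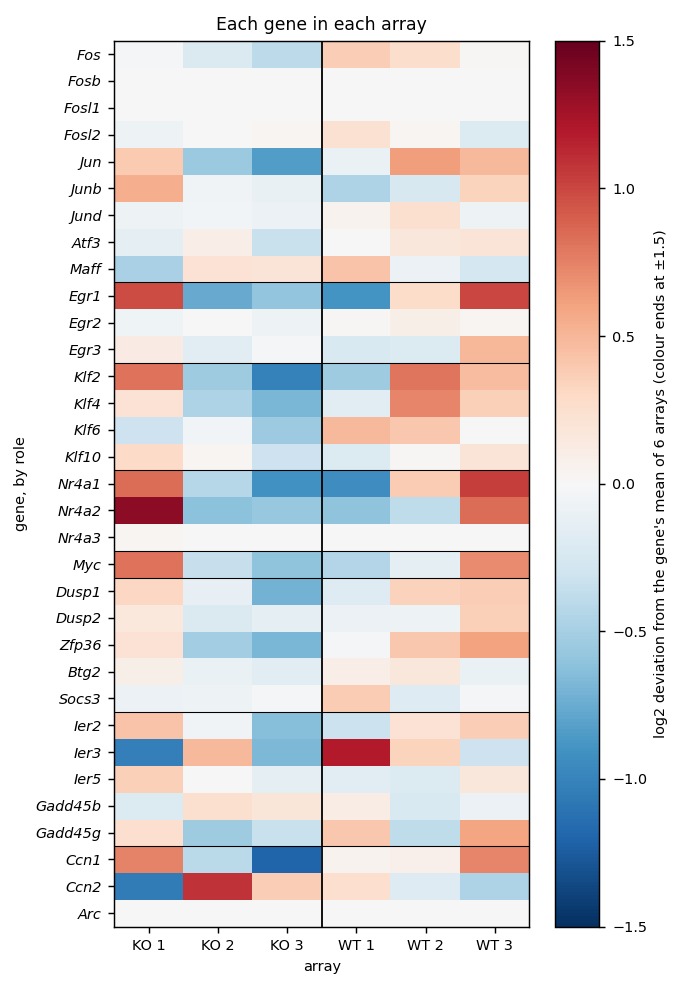
Log2 deviation of each of the 33 genes (rows, by role) from its own mean of 6 arrays in each array (columns, KO left of the black line and WT right of it), red for higher and blue for lower, with the colour scale ending at ±1.5. Egr1, Klf2, Nr4a1, Myc and Ccn1 are red in KO 1 and WT 3 and blue in KO 2 and KO 3, Ier3 and Ccn2 are blue in KO 1, and the 5 genes near the floor show almost no colour.

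Counted by array, 22, 13 and 6 of the 33 genes (66.7%, 39.4% and 18.2%) read above their own median of 6 arrays in KO 1, KO 2 and KO 3, against 71.6%, 63.5% and 28.7% of all genes. In WT 1, WT 2 and WT 3 the counts were 12, 20 and 26 (36.4%, 60.6% and 78.8%), against 27.6%, 42.3% and 66.3% of all genes. The high counts in KO 1 and WT 3 and the low count in KO 3 were thus shared in part by all genes, and in KO 1 the members' share was below that of all genes. KO 3 was the lowest array for 17 of the 33 genes and the highest for 0. The median deviation of the 33 genes was 0.12, -0.06 and -0.31 log2 in KO 1 to 3 and -0.01, 0.03 and 0.20 in WT 1 to 3. Between arrays of the same label, the median residual SD was 0.42 log2 over the 22 bright members and 0.24 over all 9096 bright genes.

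A measure taken for RNA composition moved with this order. The median of bright probe sets that name no gene, minus that of bright named ones, was -1.97, -1.19 and -0.66 log2 in KO 1 to 3 and -0.87, -1.98 and -1.88 in WT 1 to 3. It was lowest in KO 1, WT 2 and WT 3, the arrays where the 12 genes read highest. The 12 were picked by that order, and the measure falls wherever named genes read higher, so this match is partly built in. With this measure as a covariate, added after the data were seen, 0 of 33 genes passed in limma (lowest adjusted p = 0.589), and Fos differed by -0.41 (SE 0.16) and Klf6 by -0.61 (SE 0.20). Jun differed by -0.43 (SE 0.12) and Zfp36 by -0.48 (SE 0.13) in that fit, while Klf2 shrank to -0.10 (SE 0.15). Of the 12, Egr1, Nr4a1, Myc and Ier2 turned sign, to 0.16 (SE 0.36), 0.10 (SE 0.25), 0.18 (SE 0.30) and 0.03 (SE 0.11). The rest of the 12 kept their sign. What sets this measure was not tested, nor whether it reflects RNA composition.

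**Figure D4:**
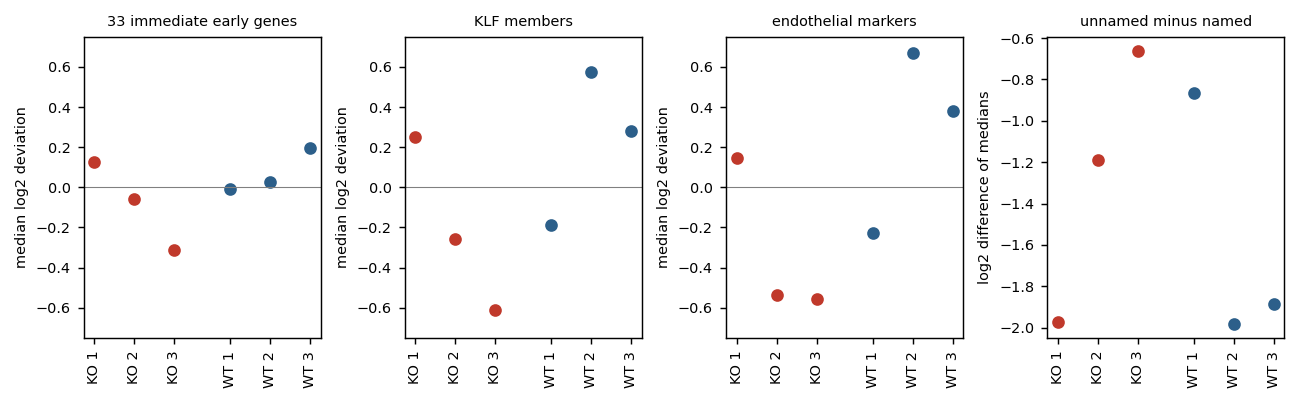
Values of each array (KO in red, WT in blue): the median log2 deviation of the 33 genes, of the 4 KLF genes and of 7 endothelial markers from each gene's mean of 6 arrays, and the log2 difference between the medians of bright unnamed and bright named probe sets. The endothelial markers and the KLF genes are above 0 in KO 1, WT 2 and WT 3, the arrays where the last measure is near its lowest.

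Genes around the response were read for comparison, and 0 of 70 passed the limma test, with 7 at an unadjusted p under 0.05 (10%, against 4.58% of all genes). Of 26 other primary response genes 18 read lower and 8 higher (median -0.14). Ppp1r15a, which restarts translation after stress, differed by -0.76 (SE 0.25) and Rhob, a rapidly induced small GTPase gene, by -0.44 (SE 0.15). Their 3 KO arrays lay below all 3 WT arrays, and those of Phlda1, a gene induced by growth factors, lay above (0.27, SE 0.08). In all, 4 of the 26 lay below (15.4%, against 3.81% of all genes) and 2 above (7.69%, against 5.89% of all genes). Of the upstream regulators 11 of 15 were measured and 10 read lower (median -0.15). Mrtfa, the actin-sensing partner of SRF, read 8.57, 7.77 and 7.73 log2 in KO 1 to 3 and 8.69, 8.80 and 8.75 in WT 1 to 3, a difference of -0.73 (SE 0.25, limma adjusted p = 0.964). All of its KO values lay below the WT values, KO 1 by 0.12 log2.

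The delayed feedback genes of ERK signalling read lower for 8 of 10 genes (median -0.20), with Spry4 at -0.79 (SE 0.50) and Spry2 at -0.23 (SE 0.15). Cytoskeletal targets of SRF read lower for 10 of 11 genes (median -0.21), among them Vcl at -0.47 (SE 0.31) and Flna at -0.30 (SE 0.13). Heat shock chaperones, which heat and other stress induce, leaned neither way, with 6 of 12 lower and 6 higher (median 0.01). Hsp90aa1 read higher in all 3 KO arrays (0.28, SE 0.09, limma adjusted p = 0.964).

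Markers of the other cell types that whole lung could hold varied between arrays as well, and their part in the values above was not tested. Of 8 macrophage and neutrophil markers 6 read lower in KO, with Itgam near the floor and a summed intensity from 9176 to 38459 in KO arrays and from 15683 to 34481 in WT arrays. Heart muscle markers summed to 2657 to 7498 in KO arrays and 3014 to 6022 in WT arrays, with Nppa near the floor and 4 of 6 higher in KO. Mesothelial markers summed to 4700 to 11830 in KO arrays and 6234 to 11318 in WT arrays, with 4 of 5 lower. Smooth muscle markers read lower for 6 of 6 genes (6527 to 9292 in KO arrays, 7536 to 11293 in WT arrays). Red cell markers read lower for 2 of 3 (1077 to 2217 in KO arrays, 1726 to 4164 in WT arrays). Epithelial markers read lower for 6 of 8 genes, with a summed intensity of 63390 to 124675 in KO arrays and 113612 to 156918 in WT arrays. Mesenchymal markers read lower for 4 of 7 (44238 to 62280 in KO arrays, 50725 to 56772 in WT arrays). Among them Dcn, which encodes the matrix proteoglycan decorin, was 1.10 higher (SE 0.20, limma adjusted p = 0.829), with all 3 KO arrays above all 3 WT arrays. Of 4 neuronal and glial markers Tubb3, Sox10 and Elavl4 lay near the floor, and the list summed to 96 to 198 in KO arrays and 193 to 370 in WT arrays. KO 1 was the lowest array for Ccn2 and for the summed macrophage, heart muscle, mesothelial, epithelial and neuronal markers alike. A sum is led by its brightest genes, and Sftpc read 12.71 log2 in KO 1 and at least 15.37 in every other array. The median deviation of the epithelial markers in KO 1 was 0.18. Epcam, Cdh1 and Foxj1 were highest in that array, while Sftpc and Ager were lowest there.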

How the data were processed

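Total RNA of mouse lungs was measured on 6 arrays, 3 labelled KO and 3 labelled WT. The values deposited by the authors are intensities of probe sets on a linear scale. The tools GCRMA and MAS5 are named per the submitters' processing notes, with no version, role or order, so the method behind the intensities is not given in the sources used here. Over all probe sets, quantiles were close between arrays, which were taken as already normalised.

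Intensities were transformed to log2 after adding 16. Probe sets were named through gene IDs of the array's annotation and RefSeq GRCm38.p6. Of 45101, 34945 named exactly 1 gene, 932 several, 9160 none, and 64 were controls. The brightest probe set stood for each of 18193 genes. The test of KO minus WT was a two-sided limma fit (lmFit and trended eBayes; limma version 3.58.1, R version 4.3.3), and its p-values were adjusted by Benjamini-Hochberg across the 18193 genes. No filter on dim genes was applied. Near the floor means below 5 log2 in all arrays. The fit was tested on simulated data of 18193 genes, in which 5.17% of unchanged genes reached an unadjusted p of 0.05 and 0 passed after adjustment. Alternatives were other pseudocounts, scalings, probe set choices, variance models, blocks, a filter on dim genes, and leaving out each array.

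The members, gene lists, tests and alternatives were chosen with earlier results of these data known. All members were described, those bright or with an unadjusted p under 0.05 array by array, and up to 3 bright genes with the smallest p per other list. Array numbers were not taken as pairs, since residuals of same-numbered arrays correlated at -0.613, 0.0971 and -0.311.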

Additional observations from a re-analysis of the deposited data

How the results depend on the processing

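None of the 33 genes passed in limma under any of 20 alternatives, with adjusted p from 0.486 to 1.00. The median difference of the members stayed negative in all of them. It was -0.08 with each array centred on its median, -0.15 and -0.11 with pseudocounts of 1 and 64, -0.12 with quantile normalisation, -0.03 with array quality weights and -0.23 with fluidics station as a block. Among the 22 bright members it was -0.29, against -0.03 over all bright genes. With the replicate number as a block it was -0.12 and 0 members passed (lowest adjusted p = 1.00). Leaving out single arrays moved it between -0.24 and -0.06. Single genes were less stable: without 1 of the 6 arrays, 14 of 33 turned sign and 29 moved by over 1.5 times, the exceptions being Fos, Egr2, Klf6 and Zfp36. With station as a block, 9 of 33 turned sign and 25 moved by over 1.5 times. The count of members lower in all KO arrays ran from 3 to 9 without 1 array, and that of members higher from 0 to 4. Within station 2 the counts were 14 and 1. Fewer arrays separate more easily by construction. Over all genes 1 passed, against 17 with median centring, 32 with station as a block, 10 within station 2, and 0 without the intensity trend, with the replicate block, with the composition covariate, or without KO 2, KO 3, WT 1, WT 2 or WT 3. The cause was not tested. With 3 arrays a label, and 6 genes dim and 5 near the floor, small differences could go unseen.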
